A study of Oryctolagus cuniculus with 8 samples.

Results

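The effect of added lard and cholesterol on the rabbit retina was read as a comparison of 4 retinas from fat diets with 4 retinas from diets without added fat. It used all 8 retinas of the study, 2 for each of 4 diets fed for 6 months. The normal diet (ND) was standard rabbit chow, the high-fat diet (HFD) was that chow with 10% lard and 0.5% cholesterol, the high-sucrose diet (HSD) was chow with 40% sucrose, and the high-fat plus high-sucrose diet (HFSD) combined the lard and cholesterol of HFD with 35% sucrose. HFD and HFSD formed the fat side, and ND and HSD the other side, so that sucrose was present in 1 diet of each side, although HFSD held less sucrose than HSD. All animals were male Chinchilla rabbits of about 10 months, given as wild type (WT), with dissected retina as the tissue. The labels do not say whether the 2 retinas of a diet came from separate rabbits, and every p below measures only the spread between these samples.

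The retina both makes cholesterol locally and takes it up from the blood as lipoprotein, mainly through the pigment epithelium and the vessels. When sterol in the cell is plentiful, the transcription factor SREBP2 is held back and the genes of cholesterol synthesis and uptake are transcribed less, whereas oxysterols activate LXR and its efflux targets. Fatty acids act on PPAR factors, which control genes of fatty acid oxidation, and are stored as triglyceride in lipid droplets coated by perilipins.

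Gene expression was given as fragments per kilobase of transcript, scaled to sequencing depth (FPKM), a level per length of transcript. Of 19293 protein-coding genes in the table, 12204 reached 1 FPKM in at least 2 retinas and were tested, 9877 of them with a gene symbol. The libraries held 15223089 to 22292993 fragments summed over genes. The tissue label matched its defining markers, and the summed level of the rod photoreceptor genes ranged from 47754 to 63925 FPKM. Some retinas stood apart in markers of other tissue. Myelin genes summed to 759.8 FPKM in ND replicate 1 against 51.6 to 495 in the other retinas, with MOBP at 0 in both HSD retinas and HFSD replicate 1. Immediate early genes summed to 2302 FPKM in ND replicate 1 against 242 to 1085, and skeletal muscle genes to 588 FPKM in HSD replicate 2 against 2.64 to 4.42. The muscle genes TNNC2, TNNT3 and MYL3 were at 0 in the other 7 retinas. Pigment epithelium genes summed to 387 and 325 FPKM in the ND retinas against 88.9 to 169.7 in the other 6. The part of these differences in the results below was not tested. In bulk retina, fewer cells of a type and less RNA per cell cannot be told apart.

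No gene passed the threshold for a fat effect. With limma on log2(FPKM+1), sucrose as a second factor and Benjamini-Hochberg adjustment over the 12204 genes, 0 genes (0%) had an adjusted p under 0.05, and the smallest adjusted p was 0.339. Unadjusted, 382 genes (3.13%) had a p under 0.05, of which 165 were higher and 217 lower in the fat diets, fewer than the 5% that an even spread of p would give. Voom on the recovered fragment numbers, the other method run, also called 0 genes. In the same model, the sucrose diets differed from the other diets in 72 genes (0.59%) by the same adjusted threshold, so that calls were possible with 8 retinas of this depth.

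The fat effects were small. Across the 12204 genes the median effect, the log2 difference of fat minus no fat, was 0.01, the middle 50% of genes lay between -0.07 and 0.08, and the standard deviation was 0.17, against 0.31 for the sucrose effects. The median standard error of a gene was 0.12. For 11700 genes (95.9%) the 95% interval of the fat effect lay between -1 and 1 on the log2(FPKM+1) scale. On this scale a given fold change of a gene near 1 FPKM comes out smaller than in an abundant gene, so that these intervals do not bound the fold change of weakly expressed genes. Only 34 genes had an effect above 1 on the log2 scale, in either direction, compared with 174 genes for sucrose, and 2 of the 34 had fat-diet retinas that did not overlap with the others.

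**Figure D1:**
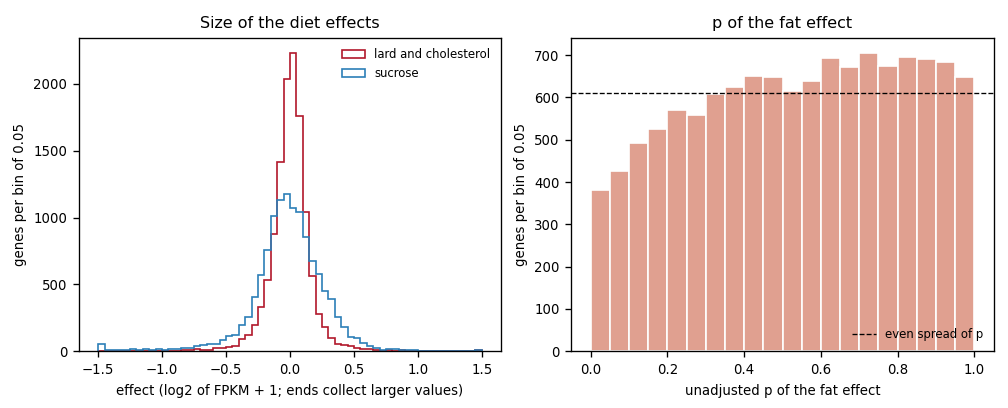
Left, number of genes by effect on log2(FPKM+1), in bins of 0.05, for added lard and cholesterol (red) and for sucrose (blue) from the same model of 12204 genes. Right, number of genes by unadjusted p of the fat effect; the dashed line is an even spread. The fat effects lie closer to 0 (standard deviation 0.17) than the sucrose effects (0.31), and the lowest bin of p holds 382 genes, under the dashed line.

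A second reading asked in how many genes the single retinas were apart. In 164 genes (1.34%), all 4 fat-diet retinas lay above or all 4 below the 4 retinas of the diets without fat. The fat diets were higher in 83 of these (0.68%) and lower in 81 (0.664%), and 133 of the 164 had a symbol. The absolute log2 effects of these genes ranged from 0.08 to 1.34, with a median of 0.26. Of the 164 genes, 104 had an unadjusted p under 0.05, so that 278 of the 382 genes with such a p had overlapping retinas. The 10 largest positive effects among the 133 are described next with 9 of the 10 most negative, and since these genes were picked for not overlapping, their values are a description. Their adjusted p values in limma with Benjamini-Hochberg adjustment ran from 0.339 to 0.9996. Under no alternative did the sign of any of these 19 turn. The choice of genes that did not overlap largely fixed this in advance, so it lends them no support.

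The largest positive effect was that of GNB4. GNB4, a beta subunit of heterotrimeric G proteins, had FPKM of 2.46 and 2.11 in ND, 5.09 and 2.31 in HSD, 6.15 and 5.45 in HFD, and 5.93 and 7.91 in HFSD, the first value of each pair being replicate 1. It averaged 6.36±1.07 FPKM (mean±s.d., n=4) with fat and 2.99±1.41 FPKM (n=4) without, a log2 effect of 0.93±0.19 (effect±standard error). HSD replicate 1, at 5.09 FPKM, came close to the fat-diet retinas. RGS7, which speeds GTP hydrolysis by G proteins and acts in the light response of ON bipolar cells, measured 19.2 and 14.5 in ND, 19.1 and 23.1 in HSD, 28.7 and 28.2 in HFD, and 30.5 and 30.5 in HFSD. All fat-diet retinas of RGS7 lay within a narrow range, its mean was 29.5±1.20 FPKM (n=4) against 19.0±3.53 FPKM (n=4), and the log2 effect was 0.63±0.11.

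Next in effect, KRTCAP3 gave the second largest effect of the 10 with 0.83±0.17 on the log2 scale, and its FPKM was 4.64 and 3.68 in ND, 3.87 and 6.00 in HSD, 6.32 and 10.0 in HFD, and 10.3 and 8.81 in HFSD. DCTPP1, an enzyme that removes surplus dCTP, had the smallest standard error of the 10 (log2 effect 0.46±0.09). Its retinas measured 4.27 and 4.95 in ND, 4.83 and 5.46 in HSD, 7.01 and 6.77 in HFD, and 7.22 and 7.31 in HFSD, with little spread on either side. TRIAP1, a small mitochondrial protein that carries phosphatidic acid with its partner PRELI, measured 26.0 and 26.1 in ND, 28.3 and 17.8 in HSD, 42.2 and 34.8 in HFD, and 36.8 and 29.2 in HFSD, and its log2 effect was 0.53±0.15. The fat-diet retina that was lowest for TRIAP1 exceeded the highest other retina by less than 1 FPKM. The histone H3K9 demethylase KDM4C had a log2 effect of 0.47±0.14 that came mainly from the sucrose diets, with 0.15 for HFD minus ND and 0.80 for HFSD minus HSD. Its values were 35.8 and 31.4 in ND, 23.8 and 21.1 in HSD, 36.1 and 38.6 in HFD, and 41.1 and 38.6 in HFSD. TSTD2 (0.68±0.17), ANKDD1B (0.59±0.22), the sialic acid esterase gene SIAE (0.54±0.24) and TTC36 (0.49±0.13) completed the 10, and in SIAE and ANKDD1B a single low retina without fat, HSD replicate 1 or ND replicate 1, was below all others. Without that retina the effect of SIAE was 0.27 and that of ANKDD1B 0.37.

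SOWAHC, an ankyrin repeat protein gene, was the clearest of the genes that were lower with fat. Its FPKM was 6.79 and 7.03 in ND, 7.24 and 7.40 in HSD, 3.29 and 4.45 in HFD, and 3.71 and 4.09 in HFSD, so that every fat-diet retina was at or below 4.45 and every other retina at or above 6.79. The means were 3.88±0.498 FPKM (n=4) and 7.11±0.265 FPKM (n=4), the log2 effect was -0.74±0.10, and the differences without and with sucrose were alike at -0.71 and -0.77. Even so, its adjusted p in limma with Benjamini-Hochberg adjustment was 0.339.

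Other genes that were lower with fat had wider or smaller differences. OXSM, the condensing enzyme of mitochondrial fatty acid synthesis, measured 10.1 and 11.5 in ND, 11.2 and 11.1 in HSD, 8.59 and 7.55 in HFD, and 7.72 and 7.56 in HFSD. Both sides were tight, with 7.85±0.495 FPKM (n=4) against 10.98±0.637 FPKM (n=4) and a log2 effect of -0.44±0.09. COQ5, a methyltransferase of ubiquinone synthesis, measured 18.2 and 20.5 in ND, 16.6 and 25.6 in HSD, 15.1 and 13.1 in HFD, and 14.5 and 14.5 in HFSD, a log2 effect of -0.46±0.13. HSD replicate 2 was the highest retina for COQ5. PIPOX, a peroxisomal oxidase of sarcosine and pipecolic acid, was between 2.19 and 3.07 FPKM in the fat-diet retinas and between 3.45 and 4.69 in the others (log2 effect -0.49±0.13). FIG4, a phosphatase of the endosomal lipid phosphatidylinositol 3,5-bisphosphate, measured 7.63 and 6.83 in ND, 5.605 and 7.39 in HSD, 4.86 and 5.26 in HFD, and 4.62 and 4.49 in HFSD, and its log2 effect was -0.43±0.10. The remaining genes described were ANKRD34B (-0.67±0.17), the transcription factor gene BATF2 (-0.56±0.19), THSD7B (-0.55±0.17) and the magnesium transporter gene NIPAL1 (-0.41±0.15). For THSD7B the difference was mostly one of HFD from ND (-0.90, against -0.19 with sucrose), and for BATF2 mostly one of HFSD from HSD (-0.87, against -0.24 without).

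**Figure D2:**
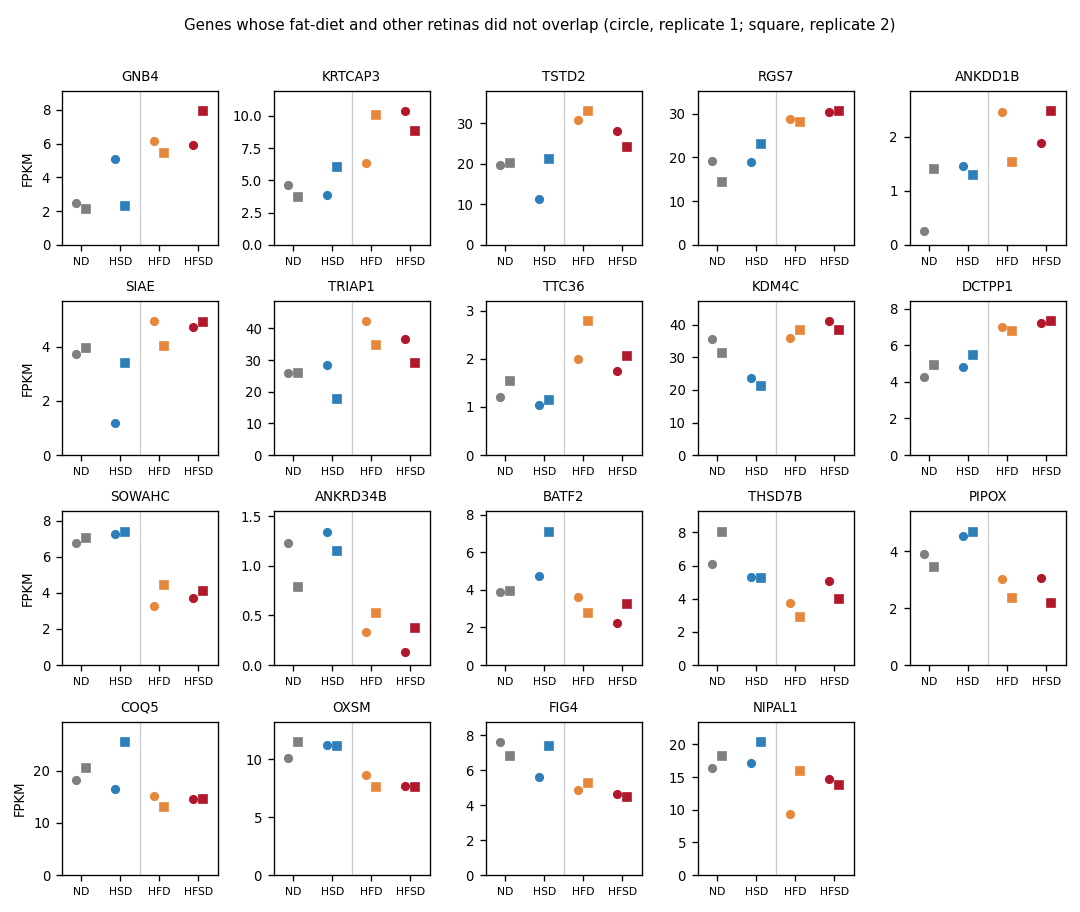
FPKM of each retina by diet for the 19 genes described above, with circles for replicate 1, squares for replicate 2 and a grey line between the diets without (left) and with (right) added fat; each vertical axis starts at 0. In every panel the 4 points right of the line lie all above or all below the 4 points left of it, for SOWAHC at 3.29 to 4.45 against 6.79 to 7.40 FPKM.

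A few genes outside that ranking were picked after their values were seen. PRELP, a leucine-rich proteoglycan of the matrix around basement membranes, had the smallest p of all genes, and its FPKM was 10.6 and 11.2 in ND, 4.43 and 3.43 in HSD, 17.6 and 22.8 in HFD, and 10.5 and 11.3 in HFSD. It was higher with fat in both parts of the design (0.83 without and 1.28 with sucrose), with a log2 effect of 1.05±0.13. Its sides overlapped, HFSD replicate 1 being below both ND retinas. PNPLA3, a lipase of lipid droplets and, in other tissues, of retinyl esters, measured 135 and 122 in ND, 113 and 109.8 in HSD, 94.5 and 102 in HFD, and 79.0 and 89.7 in HFSD. All 4 fat-diet retinas were lower, the means were 91.2±9.49 and 120.3±11.4 FPKM (n=4 each), and the log2 effect was -0.40±0.08. The adjusted p values in limma with Benjamini-Hochberg adjustment were 0.339 for PRELP and 0.996 for PNPLA3.

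Over all 12204 genes, the background for the counts of list members that follow, 6416 were higher and 5788 lower with fat, and 3.13% had an unadjusted p under 0.05. Genes of cholesterol synthesis and uptake, the class that sterol represses, had a median effect like that of all genes. Of 18 members tested, 9 were higher and 9 lower with fat, 0 had an unadjusted p under 0.05, and the median log2 effect was 0.00, against 0.01 over all genes. HMGCS1, an early enzyme of the pathway, had FPKM of 60.2 and 30.97 in ND, 47.1 and 46.8 in HSD, 37.6 and 41.1 in HFD, and 51.4 and 60.9 in HFSD, with a log2 effect of 0.06 (95% interval -0.38 to 0.49). CYP51A1, the lanosterol demethylase, measured 50.6 and 40.7 in ND, 44.1 and 36.8 in HSD, 44.9 and 37.5 in HFD, and 36.8 and 44.7 in HFSD, with a log2 effect of -0.07 (-0.33 to 0.20). In both genes the retinas of the 2 sides overlapped. PMVK, the phosphomevalonate kinase, was at -0.08 (-0.29 to 0.14) and SC5D, a sterol desaturase, at 0.07 (-0.24 to 0.38). INSIG1, the sterol-regulated anchor of the SREBP complex, was at -0.01 (-0.26 to 0.23) and the epoxidase SQLE at 0.03 (-0.30 to 0.35). None of the 18 intervals on the log2(FPKM+1) scale went below -0.60 or above 0.49.

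Read by sucrose, the same 18 genes differed in sign. HFD minus ND was positive in 4 of the 18, with a median of -0.06, and HFSD minus HSD in 14, with a median of 0.06, and 16 genes had opposite signs. Over all 12204 genes opposite signs were found in 52.4%. The difference was small for every gene and 0 of the 18 had an unadjusted p under 0.05 for the interaction, against 3.74% of all genes. Leaving out ND replicate 1 moved the median fat effect of the list to 0.10, and leaving out ND replicate 2 to -0.06. For HMGCS1 the effects were -0.13 and 0.25, and for CYP51A1 -0.14 and 0.01, without and with sucrose.

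Efflux genes and other LXR targets were likewise spread on both sides of 0. Of 13 tested, 8 were higher and 5 lower, 0 had an unadjusted p under 0.05, and the median was 0.04 (-0.03 without ND replicate 1, -0.01 without HFD replicate 2 and 0.01 after scaling to equal sums). APOC1, an apolipoprotein gene, had the largest effect at 0.36±0.30 (0.18 without ND replicate 2 and 0.61 without ND replicate 1), but its level ranged from only 0.266 to 2.07 FPKM. LIPA, the lysosomal acid lipase that frees cholesterol from its esters, was at 0.14±0.11, CYP27A1, which makes 27-hydroxycholesterol, at -0.15±0.19, and the phospholipid transfer protein gene PLTP at -0.15±0.15. Without and with sucrose the differences were 0.02 and -0.33 for CYP27A1 and -0.43 and 0.14 for PLTP, and the effect of CYP27A1 was 0.06 without HSD replicate 1. The efflux transporter gene ABCA1 did not reach the expression filter and lay between 0.473 and 1.04 FPKM in all 8 retinas. SREBF1, ABCG1, APOE, CPT1A, SCD and FASN were not among the protein-coding genes by symbol and could not be analysed here.

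Genes of fatty acid synthesis and oxidation also had medians close to 0. Of 14 synthesis genes, 8 were higher and 6 lower, with a median of 0.02 and 0 with an unadjusted p under 0.05. The largest effect was that of THRSP, a lipogenic nuclear protein, at -0.36±0.20, and the elongase gene ELOVL6 followed at 0.17±0.19 (-0.07 without and 0.42 with sucrose). Without and with sucrose the signs differed. HFD minus ND was positive in 1 of 14 genes and HFSD minus HSD in 11, and 10 of the 14 had opposite signs, with FADS2, a fatty acid desaturase, at -0.29 and 0.35. Of 22 genes of fatty acid oxidation and PPAR targets, 11 were higher and 11 lower, with a median of 0.00 and 1 gene with an unadjusted p under 0.05, against 3.13% of all genes.

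That gene was PPARA, the fatty acid receptor itself. Its FPKM was 2.93 and 3.49 in ND, 3.50 and 3.20 in HSD, 2.41 and 2.25 in HFD, and 2.46 and 2.40 in HFSD, every fat-diet retina being lower than every other retina. Its means were 2.38±0.0912 FPKM (n=4) with and 3.28±0.270 FPKM (n=4) without fat, and the log2 effect was -0.34±0.10, equal in both parts of the design (-0.34 and -0.34). Its adjusted p in limma with Benjamini-Hochberg adjustment was 0.9996. Among the targets, PDK4, a kinase that turns cells from glucose to fat oxidation, was at 0.01±0.17, ANGPTL4 at -0.21±0.20 and CPT1B, a carnitine palmitoyltransferase gene, at 0.19±0.13. The uptake receptor CD36 was at 0.03±0.21 and the long-chain dehydrogenase ACADL at -0.40±0.19. CD36 had opposite signs without and with sucrose (0.35 and -0.28), and for ACADL the differences were -0.10 and -0.69, its effect being -0.22 without HSD replicate 2.

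Lipid droplet genes gave 8 higher and 11 lower of 19, with a median of -0.02. PLIN2, the perilipin of droplets in most cells, had FPKM of 10.99 and 9.48 in ND, 8.21 and 9.50 in HSD, 12.5 and 10.0 in HFD, and 10.3 and 8.94 in HFSD. Its retinas overlapped and the log2 effect was 0.11±0.10 (95% interval -0.12 to 0.35). CIDEA, a droplet fusion protein, was the 1 member of 19 with an unadjusted p under 0.05, against 3.13% of all genes, and its FPKM was 5.72 and 4.58 in ND, 1.21 and 1.32 in HSD, 3.22 and 3.19 in HFD, and 1.32 and 0.591 in HFSD. The difference was negative at each sucrose level (-0.54 and -0.24), and the log2 effect was -0.39±0.16. ACSL5, an acyl-CoA synthetase gene, had a difference of -1.14 for HFD minus ND and of 0.00 with sucrose, and ND held its 2 highest retinas. G0S2 and MFSD2A were at 0.31±0.28 and 0.28±0.30, with opposite signs without and with sucrose (0.68 and -0.05 for G0S2, 0.64 and -0.07 for MFSD2A). Without ND replicate 1 these effects were 0.11 and -0.04.

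**Figure D3:**
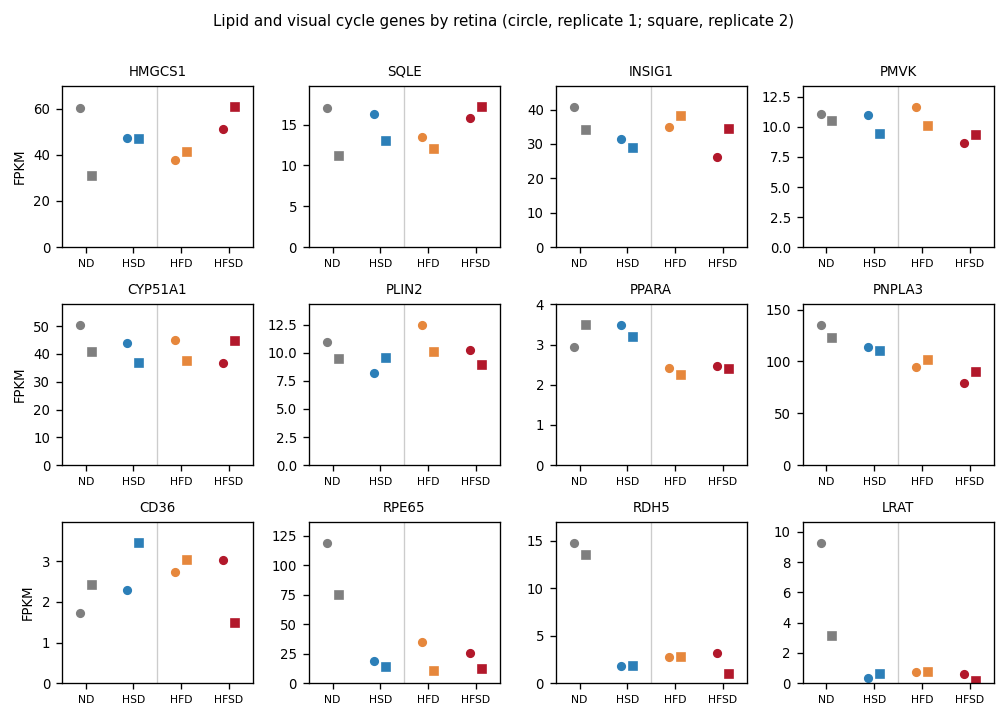
FPKM of each retina by diet for 12 lipid and visual cycle genes, with circles for replicate 1, squares for replicate 2 and a grey line between the diets without (left) and with (right) added fat; each vertical axis starts at 0. The sterol genes HMGCS1, SQLE, INSIG1, PMVK and CYP51A1 overlap, PPARA and PNPLA3 lie lower in all 4 fat-diet retinas, and RPE65, RDH5 and LRAT are highest in the 2 ND retinas.

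Lower medians with fat were found in genes of the visual cycle and the pigment epithelium, the layer that turns all-trans retinol back to 11-cis retinal. Of 21 visual cycle and retinoid genes, 19 were lower and 2 higher with fat, where 5788 of all 12204 genes were lower. An unadjusted p under 0.05 was found in 3 of the 21, against 3.13% of all genes, and the median log2 effect was -0.19 (-0.26 to -0.14 when each retina in turn was left out). By sucrose level the tally differed, with HFD minus ND positive in 5 of the 21 (median -0.28), HFSD minus HSD positive in 10 (median -0.09) and opposite signs in 13. RPE65, the isomerase of the cycle, measured 119 and 74.6 in ND, 18.9 and 13.7 in HSD, 34.8 and 10.1 in HFD, and 25.6 and 12.1 in HFSD. RDH5, the 11-cis retinol dehydrogenase of the pigment epithelium, measured 14.8 and 13.5 in ND, 1.82 and 1.79 in HSD, 2.72 and 2.73 in HFD, and 3.21 and 0.956 in HFSD. LRAT, which esterifies retinol, measured 9.29 and 3.13 in ND, 0.349 and 0.580 in HSD, 0.746 and 0.749 in HFD, and 0.609 and 0.155 in HFSD. In all 3 genes the ND retinas were above the rest, and the other 6 retinas overlapped between fat and no fat. The fat effects were -1.07±0.55, -0.995±0.41 and -0.9996±0.41, but HFD minus ND was -2.26, -2.02 and -1.90, and HFSD minus HSD was 0.12, 0.03 and -0.10. With 1 retina left out, the effect of RPE65 lay between -1.51 (without HFSD replicate 1) and -0.49 (without HFD replicate 2), being -0.70 without ND replicate 1 and -0.96 without ND replicate 2, and that of RDH5 between -1.42 and -0.76.

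In RPE65, RDH5 and LRAT the HFD and ND retinas did not overlap, and the HFSD and HSD retinas did. For RDH5 the interaction was 2.06±0.45 on the log2 scale, with an adjusted p of 0.999 in limma with Benjamini-Hochberg adjustment, and for RPE65 it was 2.38±0.80 with the same adjusted p, while 5 of the 21 genes had an unadjusted p under 0.05 for the interaction, against 3.74% of all genes. The pigment epithelium list shares TTR and RPE65 with the visual cycle list. Of its 11 tested members 8 were lower and 3 higher, with 0 at an unadjusted p under 0.05 and a median of -0.20. The median was -0.36 without ND replicate 2, -0.35 without HSD replicate 2, -0.33 without HFD replicate 1 and -0.30 without HFSD replicate 1, and by sucrose level it was -0.86 for HFD minus ND and -0.01 for HFSD minus HSD. The melanosome genes PMEL and TYRP1 were at -0.94±0.51 and -0.94±0.51, with -1.81 and -1.87 for HFD minus ND and -0.07 and -0.02 for HFSD minus HSD. Their effects were -0.49 and -0.61 without ND replicate 2, and -1.47 and -1.55 without HFSD replicate 1. The summed level of the listed markers is that given above, high in the 2 ND retinas, and its part in the result was not tested. RDH10, the retinol dehydrogenase of retinoic acid synthesis, had an unadjusted p under 0.05 as well, with FPKM of 8.91 and 11.4 in ND, 4.45 and 6.04 in HSD, 6.67 and 7.36 in HFD, and 5.11 and 3.79 in HFSD and a log2 effect of -0.33±0.14.

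Photoreceptor genes were read by cell type. Of 16 rod genes 7 were higher and 9 lower, with a median of -0.01. Of 12 cone genes 10 were lower and 2 higher, with a median of -0.19, where 5788 of all 12204 genes were lower. An unadjusted p under 0.05 was found in 3 of the 12, against 3.13% of all genes. CNGA3, the cone channel subunit, had FPKM of 9.23 and 6.48 in ND, 11.1 and 10.2 in HSD, 5.88 and 4.05 in HFD, and 8.16 and 8.15 in HFSD. THRB, the thyroid hormone receptor of cone fate, measured 20.1 and 23.3 in ND, 27.3 and 25.3 in HSD, 18.3 and 16.2 in HFD, and 23.2 and 22.7 in HFSD. PDE6C, the cone phosphodiesterase, measured 30.5 and 26.8 in ND, 44.4 and 50.9 in HSD, 24.8 and 23.6 in HFD, and 38.7 and 41.5 in HFSD. Within each sucrose level the fat-diet retinas of CNGA3, THRB and PDE6C lay below the others, with log2 effects of -0.46±0.14, -0.25±0.08 and -0.24±0.08. The short-wave opsin gene OPN1SW had an effect of 0.15±0.17 (0.49 without and -0.18 with sucrose), at 69.1 and 67.6 in ND, 255 and 290.3 in HSD, 114 and 80.9 in HFD, and 276 and 209 in HFSD. The median of the cone list ranged from -0.23 without HFD replicate 1 to -0.07 without HFD replicate 2.

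Ganglion cell genes were higher with fat in 12 of 12 tested members, where 6416 of all 12204 genes were higher. The median was 0.27 and 1 of the 12 had an unadjusted p under 0.05, against 3.13% of all genes. SNCG, a synuclein of ganglion cells, had FPKM of 293 and 186 in ND, 188 and 179.9 in HSD, 339 and 237 in HFD, and 256 and 321 in HFSD, a log2 effect of 0.46±0.18. The light chain of neurofilament, NEFL, measured 192 and 157 in ND, 137 and 107 in HSD, 185 and 178 in HFD, and 159 and 185 in HFSD, and its effect was 0.28±0.13. In both genes ND replicate 1 was level with the fat-diet retinas or above them. By sucrose level, the median of the list was 0.06 for HFD minus ND and 0.50 for HFSD minus HSD. It was 0.50 without ND replicate 1 and 0.12 without ND replicate 2, and summed over the list the FPKM was 992 and 615 in ND, 699 and 612 in HSD, 956 and 763 in HFD, and 884 and 1007 in HFSD. Within each diet the retina with the higher ganglion cell sum also had the higher myelin sum, the latter being 759.8 and 104 in ND, 65.7 and 51.6 in HSD, 495 and 359.8 in HFD, and 66.0 and 167 in HFSD, and the part of this in the result was not tested.

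Myelin genes were higher in 9 of 12, with the list's median at 0.38, but this rested on single retinas. MBP, the basic protein of myelin, had FPKM of 252 and 6.55 in ND, 4.34 and 4.16 in HSD, 172 and 104 in HFD, and 4.02 and 41.9 in HFSD. It was abundant in ND replicate 1 and the 2 HFD retinas, intermediate in HFSD replicate 2 and low in the other 4. The median of the list became -0.12 without ND replicate 2 and 1.03 without ND replicate 1. GFAP, the filament of astrocytes, followed the same retinas at 524 and 12.1 in ND, 2.37 and 1.08 in HSD, 216 and 203 in HFD, and 3.05 and 69.5 in HFSD, with a log2 effect of 2.01±1.19 that had the widest error of the fixed genes. The effect of GFAP was 3.21 without ND replicate 1, 1.08 without ND replicate 2 and 1.05 without HFSD replicate 2. The remaining 11 glial reaction genes included 6 that were higher, TIMP1, an inhibitor of matrix proteases, being the 1 with an unadjusted p under 0.05 (0.26±0.10).

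Vascular, immune and stress genes had medians between -0.08 and 0.11, and the counts of members given here stand beside 6416 higher and 5788 lower of all 12204 genes and 3.13% with an unadjusted p under 0.05. Of 15 endothelial and barrier genes 11 were higher, with a median of 0.11 (-0.08 without ND replicate 2), and APLN, the vessel growth peptide apelin, was the 1 with an unadjusted p under 0.05. The FPKM of APLN was 2.40 and 2.41 in ND, 1.08 and 0.743 in HSD, 3.64 and 5.39 in HFD, and 1.69 and 3.25 in HFSD, higher with fat at each sucrose level (0.68 and 0.83), although HFSD replicate 1 lay below the ND retinas. Of 13 microglia genes 10 were higher, with a median of 0.05 (-0.04 without ND replicate 2, -0.01 without HFD replicate 1 and 0.20 without HFSD replicate 1) and 0 with an unadjusted p under 0.05, and AIF1, which encodes the microglia marker IBA1, was at 0.16±0.19 with at most 1.09 FPKM. Complement genes were 5 higher and 5 lower of 10 (median 0.00, and -0.13 without HFD replicate 1), with HFD minus ND positive in 6 (median 0.05) and HFSD minus HSD in 2 (median -0.18). Cytokine, chemokine and adhesion genes were 3 higher and 7 lower of 10, with a median of -0.08 (-0.13 without HFD replicate 1 and -0.02 without HSD replicate 2), VCAM1 having the largest effect at 0.61±0.30. The difference in VCAM1 was 0.07 for HFD minus ND and 1.151 for HFSD minus HSD, and its effect was 0.26 without HSD replicate 2. Antioxidant genes were higher in 13 of 18, with a median of 0.04 that was 0.01 after scaling to equal sums and 0.01 without HFD replicate 1, and by sucrose level 0.13 for HFD minus ND and -0.07 for HFSD minus HSD. Of these genes, the metal-binding MT3 was at 0.35±0.14, the 1 with an unadjusted p under 0.05, and catalase (CAT) at -0.23±0.11. Heat shock and unfolded protein genes were higher in 15 of 19, and their median of 0.08 was 0.02 without HFD replicate 1 and 0.04 without HSD replicate 2. Oxidative phosphorylation genes were higher in 13 of 15 with a median of 0.07, but HFD minus ND was positive in 15 of 15 (median 0.16) and HFSD minus HSD in 6 of 15 (median -0.03). Their median was -0.02 without HFD replicate 1, 0.01 without ND replicate 1 and 0.03 after scaling to equal sums. In both lists no member lay outside -0.12 to 0.27.

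Insulin and glucose genes gave 11 higher and 8 lower of 19, with a median of 0.04 that ran from -0.02 without HFD replicate 1 to 0.09 without HFD replicate 2. An unadjusted p under 0.05 was found in 2 of the 19, both lower, against 3.13% of all genes. The growth factor gene IGF1 had FPKM of 12.8 and 8.14 in ND, 12.1 and 13.3 in HSD, 7.04 and 6.62 in HFD, and 9.49 and 11.3 in HFSD, a log2 effect of -0.39±0.14, with the HFD retinas the lowest. INSR, the insulin receptor gene, measured 15.6 and 16.8 in ND, 16.5 and 17.0 in HSD, 12.8 and 12.5 in HFD, and 16.1 and 15.1 in HFSD, a log2 effect of -0.21±0.08. LDHA, the lactate-forming enzyme of retinal glycolysis, was at 0.29±0.13 (0.09 without and 0.48 with sucrose), and the binding protein gene IGFBP5 at 0.51±0.27. Fibroblast and collagen genes were lower in 7 of 7, where 5788 of all 12204 genes were lower, with a median of -0.43, DCN, a matrix proteoglycan, reaching 16.2 FPKM in HSD replicate 2 alone. That median was -0.23 without ND replicate 1 and -0.24 without HSD replicate 2, and -0.69 and -0.70 without the other ND and HSD retinas. The 2 tested muscle genes, ATP2A1 and TNNC1, had effects of -1.502 and -1.003. Without HSD replicate 2, ATP2A1 no longer reached the expression filter, and the effect of TNNC1 was -0.004.

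**Figure D4:**
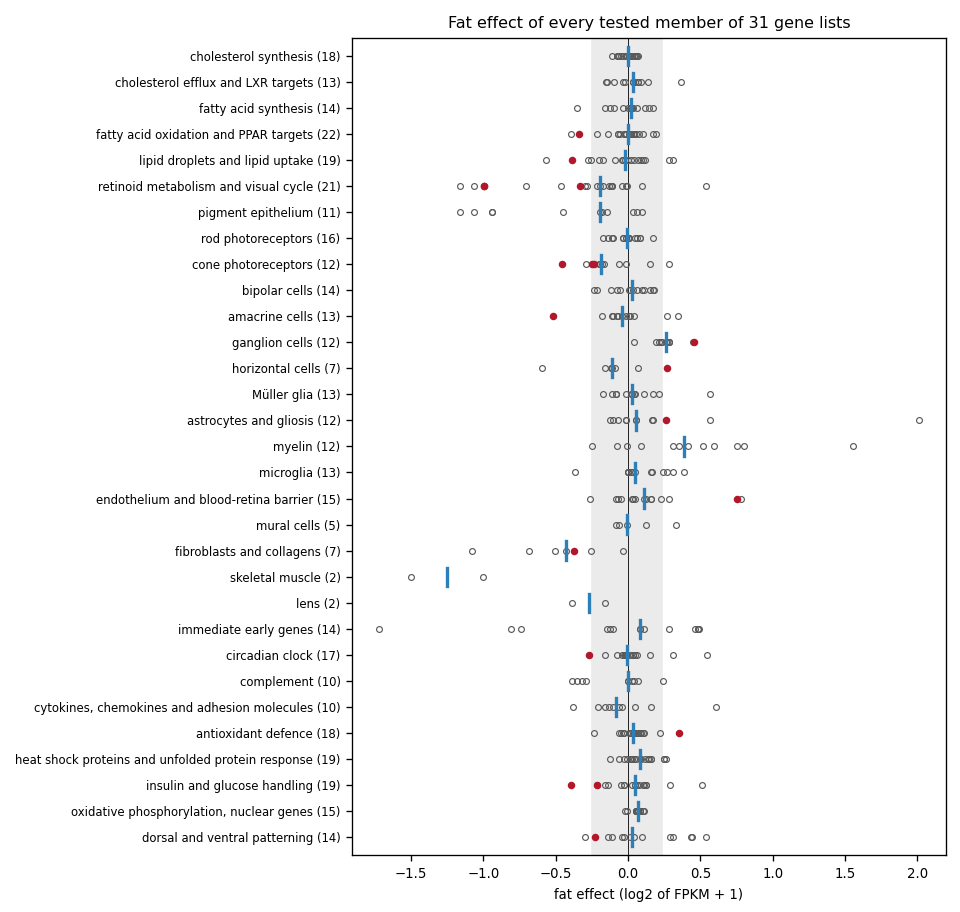
Fat effect on log2(FPKM+1) of every tested member of 31 gene lists, with the number tested in parentheses. Red points have an unadjusted p under 0.05, open points do not, blue bars are list medians, and the grey band, from -0.25 to 0.24, holds the middle 90% of all 12204 genes. Cholesterol synthesis lies within the band, and the visual cycle, myelin and muscle lists reach far outside it.

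Whether fat acted alike with and without sucrose was tested by the interaction, the effect of HFSD minus HSD less that of HFD minus ND. One gene (0.00819%) passed, and 456 genes (3.74%) had an unadjusted p under 0.05. The gene had no symbol in the table and had FPKM of 23.4 and 15.8 in ND, 256 and 240.3 in HSD, 349.6 and 251 in HFD, and 259 and 298 in HFSD. It was low in ND and high in the other 3 diets, the interaction was -3.71±0.31 and the adjusted p in limma with Benjamini-Hochberg adjustment 0.0489. It was no longer called by 6 of the 8 alternatives other than leaving out a retina. With 1 retina left out, it was called without ND replicate 1 and in none of the other 7 fits.

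Across all genes the 2 fat comparisons without and with sucrose, which share no retina, could be set side by side. HFD minus ND and HFSD minus HSD had opposite signs in 6393 of the 12204 genes (52.4%). Across genes, which are not independent replicates, the 2 differences had a Pearson r of -0.08 and a Spearman rho of -0.06, and r was -0.12 among genes with a mean of at least 5 FPKM. The 2 sets were of like size, with standard deviations of 0.27 and 0.25. In 24 genes both differences had an unadjusted p under 0.05 with the same direction, and in 22 with opposite directions. By adjusted p in limma, HFD minus ND called 1 gene (0.00819%), the same gene without a symbol, and HFSD minus HSD called 0 (0%). Unadjusted, 526 genes (4.31%) had a p under 0.05 for the first difference and 335 genes (2.75%) for the second.

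Among genes with a symbol, those next in order of the interaction p were chosen after the values were seen. BAG2, a co-chaperone of HSP70, had FPKM of 37.0 and 36.7 in ND, 75.7 and 72.2 in HSD, 71.3 and 70.1 in HFD, and 55.8 and 53.7 in HFSD, its pairs of replicates being close together. It was higher with fat without sucrose (0.92) and lower with it (-0.43), the interaction being -1.35±0.13 with an adjusted p of 0.0879 in limma with Benjamini-Hochberg adjustment. The lens and retinal crystallin gene CRYBB2 measured 2.92 and 3.83 in ND, 12.2 and 10.9 in HSD, 6.06 and 8.23 in HFD, and 3.85 and 2.19 in HFSD, an interaction of -2.56±0.34. The potassium channel subunit gene KCNG4 measured 9.28 and 8.44 in ND, 10.4 and 9.04 in HSD, 12.2 and 15.6 in HFD, and 5.11 and 4.51 in HFSD, an interaction of -1.47±0.22. For SRGN, a proteoglycan of secretory granules, the interaction was -1.21±0.23, and for STRA6, the retinol uptake receptor, 1.75±0.35. The adjusted p values of CRYBB2, KCNG4, SRGN and STRA6 in limma with Benjamini-Hochberg adjustment were 0.248, 0.479, 0.999 and 0.999.

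**Figure D5:**
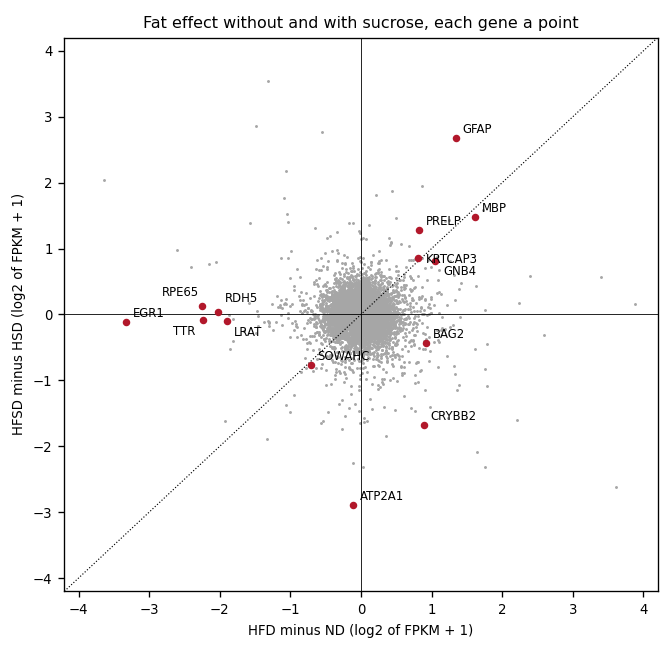
Each point is 1 gene, with HFD minus ND on the horizontal and HFSD minus HSD on the vertical axis, both on log2(FPKM+1); red points are named genes and the dotted line marks equal effects. The cloud has little slope (r of -0.08), GNB4, KRTCAP3, PRELP and SOWAHC lie near the line, and RPE65, RDH5, LRAT and EGR1 lie along the horizontal axis.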

How the data were processed

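RNA of 8 rabbit retinas was sequenced as TruSeq libraries on an Illumina HiSeq instrument. Per the paper's methods, the authors assessed reads with FastQC, trimmed them, mapped them with TopHat2, discarded reads with several locations and calculated FPKM per gene in R. FPKM is what the authors deposited, not counts. The genome build is not given in the sources used here, so no coordinates or sequences are printed. FPKM steps gave whole fragments (within 0.02 of a whole number) for 99.99% of values above 0, and these supplied the depth and the voom alternative. Which total the authors divided by is not given: in ND replicate 2 and HFD replicate 1 the divisor read from the steps (17706804 and 19970643) was below the fragments summed over genes (18161004 and 20430243). The protein-coding FPKM summed to 573513 and 613559 in these 2 retinas against 529976 to 541267 in the other 6, and scaling to equal sums was one of the alternatives.

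Genes of the protein-coding class that reached 1 FPKM in 2 or more retinas were analysed as log2(FPKM+1) with limma 3.58.1 (trend) in R 4.3.3, with fat and sucrose as factors, all 8 retinas in 1 fit and Benjamini-Hochberg adjustment over all 12204 genes (adjusted p under 0.05). With this pseudocount, effects of weakly expressed genes come out smaller than their true ratio. The interaction and the 2 single-level comparisons were fitted with all 4 diets. The method was tested on simulated data. Members and gene lists were chosen with earlier results of these data known. Text genes were the called genes, the 10 largest effects in each direction among genes with a symbol whose sides did not overlap, a fixed set of lipid, visual cycle and glial genes, up to 4 members of each list by absolute effect, and the genes called for the interaction; other genes were chosen after their values were seen. Some genes that these rules name are not reported here. Alternatives changed the model, scaling, pseudocount, filter, trend and test, or left out a retina. Gene symbols were used as deposited, and 12495 of 13292 matched the RefSeq table of mOryCun1.1.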

Additional observations from a re-analysis of the deposited data

Results flagged for a closer look

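In groups of 4 retinas, a single retina was set apart from the other 3 by a wide gap in 37 of 360 groups of named genes and list sums. Each group pooled a diet with and a diet without sucrose. Many of the genes were picked for large effects, and some also entered the list sums, so no chance rate can be set beside this count.

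In many of these groups the retina set apart was ND replicate 1, among the diets without fat. It was the highest for the glial and myelin genes GFAP (524 FPKM), MBP (252), MOBP (11.4) and MAG (10.7), with the myelin list summing to 759.8 FPKM and the microglia list to 66.8. The vessel genes CLDN5 (28.0 FPKM), RGS5 (8.97), KCNJ8 (2.09) and the extracellular dismutase gene SOD3 (20.8) were highest in it as well. So were the immediate early genes FOS (285 FPKM) and FOSB (169.7), with a list sum of 2302, and the ganglion cell gene SNCG (293). The same retina was the lowest for PDE6A (729.5 FPKM), HES1 (19.4) and ANKDD1B (0.261).

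HSD replicate 2 was set apart by muscle and matrix genes, with ATP2A1 at 62.1 FPKM, TNNC1 at 37.2, DCN at 16.2 and TMOD1 at 23.2, and by the muscle list at 588. Single values of HSD replicate 1 were 5.09 FPKM for GNB4, which was high, and 11.2 for TSTD2 and 9.05 for CRYM, both low. ND replicate 2 was low for POU4F3 (1.21 FPKM) and high for the sum of efflux genes and LXR targets (417).

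On the fat side, HFD replicate 1 was high for OXSM (8.59 FPKM) and low for PROX1 (9.49) and CFP (1.29), and the sum of its blood genes was 1.84 FPKM. HFD replicate 2 was high for NR4A1 (95.8 FPKM) and BHLHE40 (39.6) and low for SCD5 (81.7) and the amacrine list (435). HFSD replicate 1 was high for CAT (17.3 FPKM), and HFSD replicate 2 was low for the lens list (10.5).

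The fat effect differed between the sucrose levels in the gene without a symbol that was called for the interaction, by -3.71 on the log2 scale, as tested by the interaction in limma.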

How the results depend on the processing

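The count of 0 genes called for fat held in 9 of 10 alternatives and whenever 1 retina was left out (0 to 0). The exception was the model with all 4 diets, which called 1 gene (adjusted p 0.0269), the gene without a symbol that was called for the interaction. The interaction count of 1 became 0 with scaling by median of ratios, a pseudocount of 0.1, no filter on low values, no mean-variance trend and voom on whole fragments, and it was 0 to 6 when 1 retina was left out, with a lone retina assumed to vary like the other diets. Without HSD replicate 1, which leaves the muscle-rich HSD replicate 2 alone, the 6 included the muscle genes TPM2, MYLPF, TCAP and PGAM2. The gene called with all retinas was among the calls without ND replicate 1 alone, and the fits without ND replicate 2, HFD replicate 1 and HFD replicate 2 called 1 other gene each, for the HFD retinas DUSP1 and APOD. Deviations of same-numbered retinas correlated between -0.165 and 0.0813 across diets. This gave no sign that the replicate numbers pair the retinas, but such a check cannot exclude a pairing or a shared batch. With a replicate block the fat count was 0 and the interaction count 0. The count of genes whose sides did not overlap, 164, was 153 after scaling to equal sums and 330 to 493 when 1 retina was left out, where 3 retinas faced 4. Scaling to equal sums moved the median fat effect of all genes to -0.02. The depth limits low genes most, since 1 fragment on a kilobase of transcript was worth 0.0439 to 0.0634 FPKM.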

Other observations

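Other retinal neuron and glia lists had medians close to 0. The median log2 fat effect was 0.02 over 14 bipolar cell genes, -0.04 over 13 amacrine cell genes, -0.11 over 7 horizontal cell genes, 0.02 over 13 Müller glia genes and -0.01 over 5 mural cell genes. By sucrose level, bipolar cell genes were higher in 5 of 14 for HFD minus ND (median -0.04) and in 12 of 14 for HFSD minus HSD (median 0.11). With 1 retina left out the bipolar cell median ran from 0.01 (without HSD replicate 2) to 0.06 (without ND replicate 2), the amacrine cell median from -0.06 (without HSD replicate 2) to 0.01 (without ND replicate 1), the horizontal cell median ran from -0.18 (without HSD replicate 2) to 0.00 (without HFD replicate 1), the Müller glia median from -0.07 (without ND replicate 1) to 0.05, and the mural cell median from -0.19 (without ND replicate 2) to 0.20 (without HFD replicate 1). In the amacrine list the peptide gene SST had an unadjusted p under 0.05, and its FPKM was 0.778 and 0.136 in ND, 3.05 and 4.36 in HSD, 0.200 and 0.132 in HFD, and 2.07 and 1.47 in HFSD. The differences of SST were -0.29 without and -0.76 with sucrose. In the horizontal cell list the calcium buffer gene CALB1 measured 32.3 and 35.3 in ND, 39.2 and 35.9 in HSD, 41.6 and 35.8 in HFD, and 47.3 and 48.9 in HFSD, higher with fat at each sucrose level, with a log2 effect of 0.27±0.08. CALB1 was the 1 horizontal cell gene with an unadjusted p under 0.05.

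Clock and patterning genes were also spread on both sides. Of 17 clock genes 8 were higher and 9 lower (median -0.01), and CLOCK, the core activator, had FPKM of 21.9 and 20.7 in ND, 25.8 and 25.7 in HSD, 17.7 and 15.3 in HFD, and 21.01 and 24.0 in HFSD, a log2 effect of -0.27±0.09. Of 14 immediate early genes 8 were higher, and the median of 0.08 became -0.19 without HFD replicate 2 and 0.28 without HFD replicate 1, with EGR1, a factor induced by light and handling, at 1548 and 468 in ND, 366 and 159 in HSD, 28.9 and 242 in HFD, and 375 and 131 in HFSD. EGR1 had an effect of -1.72±0.88 (-3.32 for HFD minus ND and -0.12 for HFSD minus HSD), and its retinas overlapped. The effect was -1.06 without ND replicate 1 and -0.80 without HFD replicate 1, and -2.34 at the other end of the fits with 1 retina left out. Of 14 dorsal and ventral patterning genes 8 were higher (median 0.03, and 0.12 without ND replicate 1). The 2 lens genes tested had a median of -0.27, which was 0.05 without HFSD replicate 2 and -0.48 without ND replicate 2, and the medians by sucrose level had opposite signs (0.67 for HFD minus ND and -1.21 for HFSD minus HSD). Of the 10 listed blood genes, 5 were among the protein-coding genes by symbol, and 0 reached the expression filter. The listed adult globin genes were not among those present by symbol.

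Some genes with an unadjusted p under 0.05 were chosen after their values were seen. HCRT, the orexin precursor gene, had FPKM of 5.50 and 2.52 in ND, 2.50 and 1.37 in HSD, 26.8 and 21.7 in HFD, and 1.152 and 7.65 in HFSD, high in the 2 HFD retinas, with a log2 effect of 1.49±0.51 (2.39 without and 0.58 with sucrose). DUSP2, a phosphatase of MAP kinases, measured 493 and 198 in ND, 119 and 62.9 in HSD, 59.5 and 124 in HFD, and 57.6 and 63.0 in HFSD, an effect of -1.19±0.41, with ND replicate 1 far above the rest. PAQR9 measured 53.2 and 56.4 in ND, 93.2 and 71.0 in HSD, 89.0 and 91.7 in HFD, and 135 and 106 in HFSD, higher with fat at each sucrose level (0.71 and 0.55). The lipid transfer gene STARD10 was higher in all 4 fat-diet retinas (22.7 and 18.0 in ND, 21.1 and 19.8 in HSD, 24.0 and 26.8 in HFD, and 28.4 and 26.7 in HFSD), a log2 effect of 0.36±0.09. None of HCRT, DUSP2, PAQR9 and STARD10 passed the adjusted threshold in limma with Benjamini-Hochberg adjustment, the lowest adjusted p of the 4 being 0.785.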
